A study of Homo sapiens with 5 samples.

Results

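The genes described here are SIX2, SIX3, SIX4, SIX6, EYA1, EYA2, EYA4 and DACH1, 8 genes of the sine oculis, eyes absent and dachshund gene network among 19970 protein-coding genes. They were chosen by name, with earlier results of these data known. Each was taken as its RefSeq record in GRCh38.p14, the assembly of hg38, with 2 kb added on either side. HT1376 is an established human bladder carcinoma line. Its cells were kept in DMSO, the vehicle, or in CPI-0209, an EZH2 inhibitor, at 250 nM for 8 days, and chromatin immunoprecipitation with sequencing (ChIP-seq) was performed with an antibody to EZH2 or to trimethylated lysine 27 of histone H3 (H3K27me3). The 4 groups (H3K27me3 DMSO, H3K27me3 CPI-0209, EZH2 DMSO and EZH2 CPI-0209) have 1 library each, so differences between conditions have no replicate check and were not tested. Each library is a list of called intervals on a 200 bp grid, without read counts or scores; sequencing depth is unknown, and a stretch without a call is not a stretch shown to lack the mark. Coverage below is the percent of a gene's window, its record with 2 kb on each side, that lies under called intervals.

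EZH2 is the methyltransferase of the Polycomb complex PRC2 and places H3K27me3 on the chromatin of developmental genes that a cell type keeps silent, often from promoters rich in CG dinucleotides. The proteins encoded by SIX2, SIX3, SIX4 and SIX6 are homeodomain transcription factors, EYA proteins are their coactivators and also carry phosphatase activity, and DACH proteins are nuclear cofactors that can turn the complex to repression. The network acts downstream of PAX factors in the developing eye, ear, kidney and muscle.

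The promoter table holds a start for 5 of the 8 genes, and the 250 bases before each of these starts are shown because the calls at the start set these genes apart: SIX2 and SIX6 under every list, SIX4 under EZH2 alone, EYA4 with the edge of its H3K27me3 calls at the start, and DACH1 under every list but only near the start. Capitals mark CG dinucleotides; sequences are from RefSeq, GRCh38.p14, 5′ to 3′ on the gene's own strand. SIX2 is chr2:45009453-45009702 on the minus strand, SIX4 chr14:60724352-60724601 on the minus strand, SIX6 chr14:60508896-60509145 on the plus strand, EYA4 chr6:133241107-133241356 on the plus strand and DACH1 chr13:71867205-71867454 on the minus strand.
SIX2: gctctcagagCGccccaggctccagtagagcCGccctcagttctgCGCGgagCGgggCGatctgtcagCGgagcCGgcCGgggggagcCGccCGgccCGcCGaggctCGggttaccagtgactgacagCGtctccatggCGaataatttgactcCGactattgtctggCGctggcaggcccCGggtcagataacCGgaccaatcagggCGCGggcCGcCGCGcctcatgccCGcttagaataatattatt
SIX4: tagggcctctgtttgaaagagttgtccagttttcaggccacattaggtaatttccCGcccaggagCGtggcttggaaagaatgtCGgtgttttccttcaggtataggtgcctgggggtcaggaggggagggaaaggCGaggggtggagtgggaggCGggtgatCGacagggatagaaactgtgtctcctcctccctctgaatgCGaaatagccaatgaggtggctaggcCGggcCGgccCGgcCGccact
SIX6: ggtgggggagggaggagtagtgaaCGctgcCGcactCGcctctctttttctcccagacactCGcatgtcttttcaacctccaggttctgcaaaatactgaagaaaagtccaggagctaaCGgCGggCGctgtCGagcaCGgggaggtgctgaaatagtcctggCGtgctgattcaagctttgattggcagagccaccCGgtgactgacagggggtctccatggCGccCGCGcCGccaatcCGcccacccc
EYA4: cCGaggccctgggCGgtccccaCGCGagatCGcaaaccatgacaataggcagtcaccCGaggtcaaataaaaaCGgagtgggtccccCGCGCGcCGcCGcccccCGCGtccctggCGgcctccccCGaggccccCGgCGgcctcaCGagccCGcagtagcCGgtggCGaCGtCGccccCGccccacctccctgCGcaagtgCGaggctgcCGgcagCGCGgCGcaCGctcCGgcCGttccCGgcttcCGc
DACH1: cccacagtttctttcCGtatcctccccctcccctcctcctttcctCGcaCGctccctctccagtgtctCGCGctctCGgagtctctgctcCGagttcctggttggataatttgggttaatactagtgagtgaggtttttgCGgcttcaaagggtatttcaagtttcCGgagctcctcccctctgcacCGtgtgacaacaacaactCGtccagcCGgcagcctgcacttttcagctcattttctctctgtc

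CG, which reads the same on both strands, occurred 26 times before SIX2, 11 times before SIX4, 16 times before SIX6, 36 times before EYA4 and 12 times before DACH1. The median over 35116 promoter sequences of the same length was 11, and 93.9% held at least 1. At least as many CG as at EYA4 were found in 4.85% of them, and at least as many as at SIX2 in 19.6%. The shares with at least as many were 41.0% for SIX6, 48.5% for DACH1 and 50.3% for SIX4. SIX4 and DACH1 were therefore close in CG number, while H3K27me3 was called over all 250 bases at DACH1 and over none at SIX4 in both conditions. They were less alike in CG relative to the number expected from C and G content. This ratio was 0.560 at SIX4, 0.712 at DACH1, 0.711 at SIX6, 0.967 at SIX2 and 1.05 at EYA4, beside a median of 0.558. A link between CG and the calls was not tested. SIX2 and SIX6 shared 2 runs in the same order, GTGACTGACAG and GTCTCCATGGCG, found by comparing the 10 pairs of these promoters on both strands for runs of at least 11 bases. The first began 133 bases before the SIX2 start and 51 bases before the SIX6 start, and the second began 121 and 37 bases before. The first run was in 0.0626% of all promoters (22) and the second in 0.0342% (12), and the 2 genes with both were SIX2 and SIX6. SIX4 and DACH1 shared AGGAGGGGAGGG on opposite strands, which 0.154% of promoters hold, and EYA4 and DACH1 shared AGGCTGCCGGC on opposite strands, which 0.0228% hold. These matches describe letters and name no binding site.

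H3K27me3 was called at 6 of the 8 genes in DMSO (75.0%, exact 95% binomial limits 34.9 to 96.8) and at the same 6 in CPI-0209: SIX2, SIX3, SIX6, EYA2, EYA4 and DACH1. Over all protein-coding genes it was called at 34.2% in DMSO and 24.5% in CPI-0209. EZH2 was called at 7 of the 8 in DMSO and at all 8 in CPI-0209, EYA1 being the gene added; over all genes the shares were 58.8% and 75.1%. At the start (within 2 kb of the tabled start, or of either end of the record for SIX3, EYA1 and EYA2, which have no tabled start) the counts were again 6 and 6 for H3K27me3, against 27.9% and 20.0% of all genes, and 7 and 8 for EZH2, against 52.5% and 70.7%. The genes are not separate events, since SIX3 and SIX2 lie 59.1 kb apart. They were also chosen with earlier results known, so the limits are no test against the shares over all genes. Coverage at the genes with a call ranged from whole windows to under 2%. Counted only where 2 intervals of a list overlap, H3K27me3 in CPI-0209 was called at 3 of the 8 genes, SIX2, SIX3 and EYA2. This count has no share over all genes beside it and is no result particular to these genes. Over the whole H3K27me3 lists, 62.7% of the covered length in DMSO and 12.9% in CPI-0209 lay under 2 intervals.

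**Figure D1:**
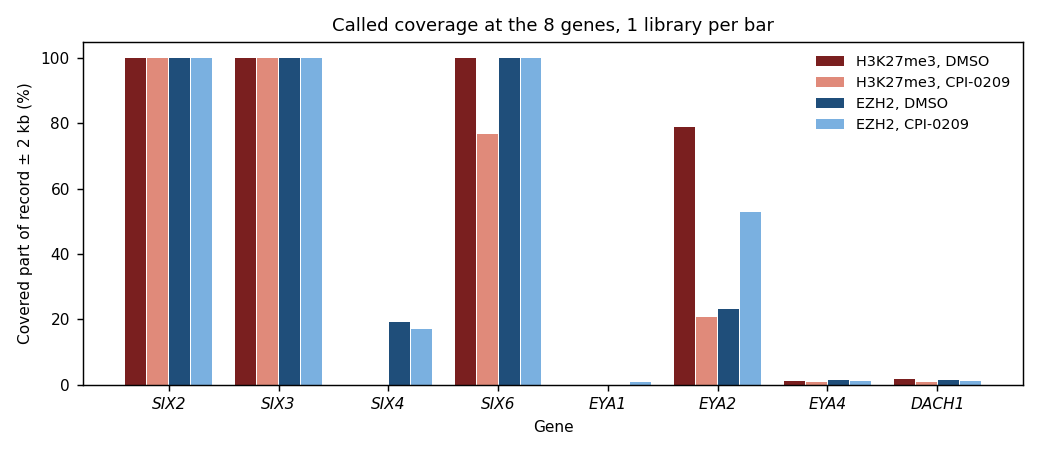
Percent of each gene's window (record with 2 kb on each side, vertical axis) under called intervals, with 1 bar for each of the 4 libraries at each gene. SIX2 and SIX3 stand at 100% in every library, EYA2 at 78.9% and 20.7% for H3K27me3 and 23.3% and 52.8% for EZH2, and EYA4 and DACH1 under 2% throughout.

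The SIX2 and SIX3 windows were wholly covered by H3K27me3 and by EZH2 in both conditions. SIX2, which keeps nephron progenitors in the kidney undifferentiated (chromosome 2, record 45005182 to 45009452), had 100% in each of the 4 libraries, and so had SIX3, a regulator of forebrain and eye formation (chromosome 2, 44941702 to 44946071). Whole coverage in all 4 lists was found at 2.95% of the 7563 records of 15 kb or shorter, and these 2 genes are 2 of the 4 members of that length. With the windows wholly covered, the difference between the conditions at these genes showed in the width of the domain, formed by merging overlapping intervals. Coverage also differed where 2 intervals of a list overlap, as given below, and at SIX2 with 10 kb on either side. At SIX2 the widest H3K27me3 domain was 22.8 kb long in DMSO against 17.2 kb in CPI-0209, and at SIX3 69.4 kb against 31.4 kb. The widest EZH2 domain was 21.2 kb long in DMSO against 18.8 kb at SIX2, and 36.0 kb against 59.2 kb at SIX3. A second DMSO EZH2 piece of 9.6 kb, from 44959001 to 44968600, followed the 36.0 kb domain at SIX3 after a short gap. Around SIX2 the widest domain of both was narrower in CPI-0209, but for EZH2 this turned under 2 overlapping intervals (5.8 kb in DMSO against 17 kb).

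Between SIX3 and SIX2 (59.1 kb) H3K27me3 covered 77.3% in DMSO and 48.9% in CPI-0209, and EZH2 covered 50.6% and 69.5%. The DMSO H3K27me3 domain over SIX3 ran from 44912801 to 44982200. In CPI-0209 it was represented by a 31.4 kb piece over the gene and an 11.2 kb piece from 44968601 to 44979800, and the CPI-0209 EZH2 domain, from 44920601 to 44979800, spanned both. The map of this region shows 5 further H3K27me3 pieces of DMSO that begin within 60 kb above SIX2, of 4.8 to 10.4 kb, of which 1 met a CPI-0209 piece (4.4 kb, from 45037601), and that piece also lay under EZH2 in both conditions. Counted only where 2 intervals of a list overlap, H3K27me3 in CPI-0209 covered 82.2% of the SIX2 window and 40.6% of the SIX3 window, against 100% at both in DMSO.

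**Figure D2:**
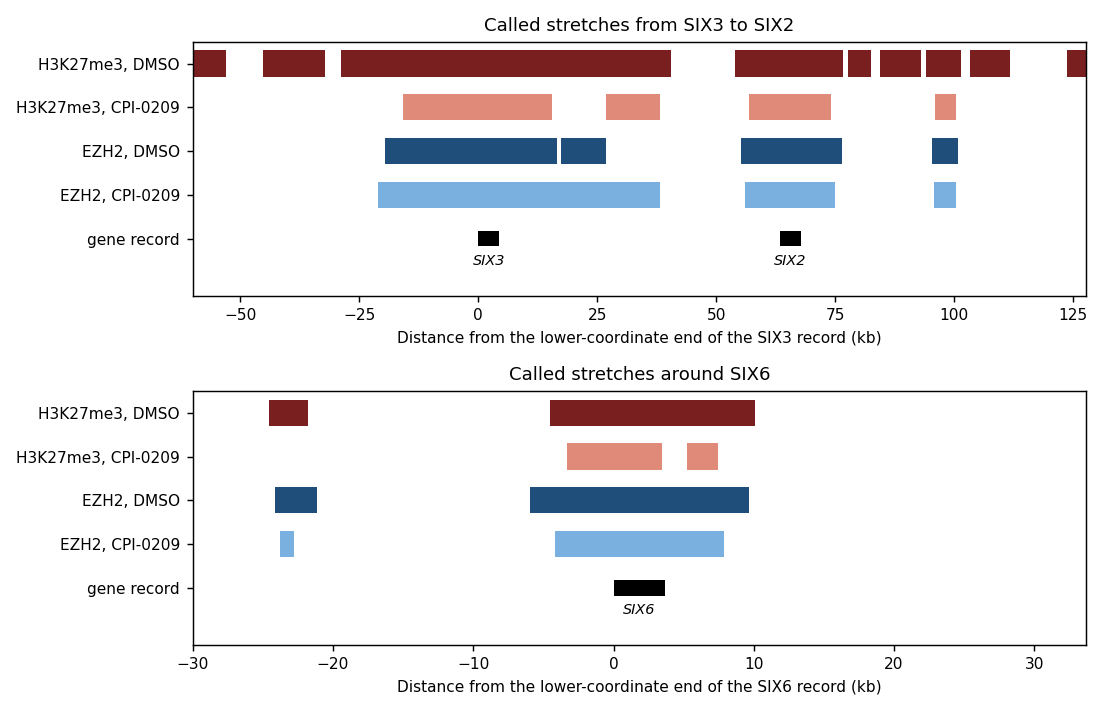
Called stretches (coloured bars) of the 4 libraries around SIX3 and SIX2 (top) and around SIX6 (bottom), by distance in kb from the lower-coordinate end of the SIX3 or SIX6 record, with gene records in black. H3K27me3 in CPI-0209 lies in 31.4 kb and 11.2 kb pieces over and beside SIX3 where DMSO has 69.4 kb, and at SIX6 in 6.8 kb and 2.2 kb pieces where DMSO has 14.6 kb.

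SIX6 and SIX4, on chromosome 14, differed in the mark. SIX6, a regulator of eye and pituitary development (60509146 to 60512850, inside the longer record of C14orf39), was covered by H3K27me3 over 100% of its window in DMSO and 76.6% in CPI-0209, and by EZH2 over 100% in both. The 1.8 kb that had H3K27me3 only in DMSO kept its EZH2 calls. At SIX6 the widest H3K27me3 domain was 14.6 kb long in DMSO against 6.8 kb in CPI-0209, beside a separate CPI-0209 piece of 2.2 kb, and the EZH2 domain was 15.6 kb long against 12 kb. No stretch of the SIX6 window lay under 2 overlapping H3K27me3 intervals in CPI-0209, whereas all of it did in DMSO.

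SIX4, which acts in muscle and kidney development (60709539 to 60724351), had no H3K27me3 interval in either condition. EZH2 covered 19.1% of its window in DMSO and 17.0% in CPI-0209, as a stretch from 0.249 kb before its start to 3.35 kb inside the gene in DMSO and to 2.95 kb in CPI-0209. EZH2 with no H3K27me3 in both conditions was the state of 30.1% of all genes.

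At EYA2 the H3K27me3 calls of DMSO were spread along the whole gene, unlike at EYA1, EYA4 and DACH1. EYA2 encodes a coactivator of these homeodomain factors (chromosome 20, 46894843 to 47188844), and H3K27me3 covered 78.9% of its window in DMSO (235.2 kb in 11 pieces) and 20.7% in CPI-0209 (61.6 kb in 10 pieces). EZH2 covered 23.3% in DMSO (69.6 kb in 4 pieces) and 52.8% in CPI-0209 (157.2 kb in 11 pieces). H3K27me3 thus had 0.262 times its DMSO coverage in CPI-0209 and the enzyme 2.26 times. The directions held in the other settings tried, but the sizes moved: with the DMSO H3K27me3 list shortened to the length of the CPI-0209 list by keeping its widest intervals, the H3K27me3 difference at EYA2 was −23.6 points, against −58.3, and under 2 overlapping intervals the EZH2 difference was 16.2 points, against 29.4. All of the CPI-0209 H3K27me3 lay inside DMSO H3K27me3. The longest H3K27me3 piece was 72.0 kb in DMSO against 8.8 kb in CPI-0209, and the longest EZH2 piece 26.4 kb against 31.4 kb. The EZH2 order in length turned under 2 overlapping intervals, at 12.6 kb in DMSO against 10.8 kb in CPI-0209. EYA2 and DACH1 were the 2 of 6 marked genes whose H3K27me3 coverage in CPI-0209 was at most 0.5 times that in DMSO, a difference found at 62.1% of all genes with H3K27me3 in DMSO and at 78.9% of those with records of 250 kb or longer.

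The EZH2 stretches that were called at EYA2 in CPI-0209 alone lay almost wholly within H3K27me3 of DMSO. They amounted to 99.2 kb, of which 96.6% was under H3K27me3 in DMSO and 31.0% was under H3K27me3 in CPI-0209. EZH2 called in DMSO alone amounted to 11.6 kb. By state, 66.8 kb of the window had only DMSO H3K27me3, 65.0 kb had H3K27me3 in DMSO and EZH2 in CPI-0209 only, 26.4 kb was called in all 4 lists and 59.4 kb in none. H3K27me3 that lay under DMSO EZH2 (69.6 kb) was called again in CPI-0209 over 40.0% of its length, and H3K27me3 outside it (165.6 kb) over 20.4%. Set against the CPI-0209 EZH2 calls, the retained shares were 37.2% of 153.8 kb under them and 5.41% of 81.4 kb outside them. These figures describe 1 gene in 4 libraries, and neighbouring stretches are not independent.

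**Figure D3:**
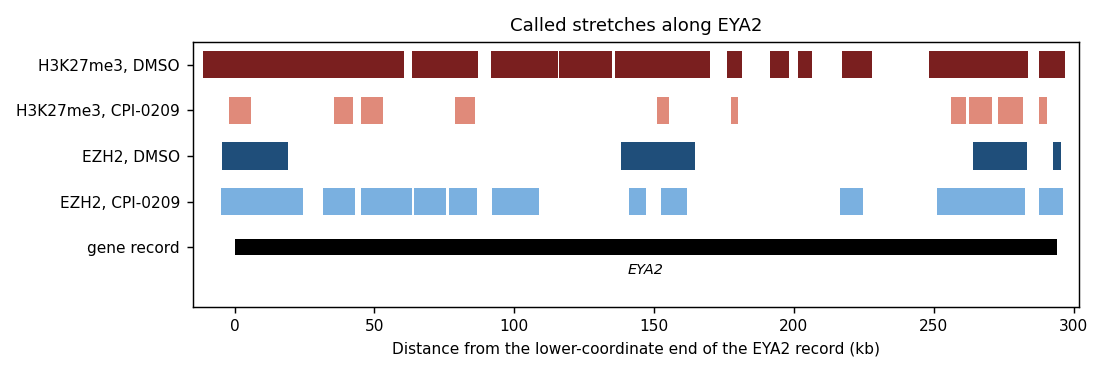
Called stretches (coloured bars) of the 4 libraries along EYA2, by distance in kb from the lower-coordinate end of its record, which is drawn in black. H3K27me3 fills 78.9% of the window in DMSO and 20.7% in CPI-0209, where it lies mostly near both ends, and EZH2 fills 23.3% and 52.8%.

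Along EYA2 in segments of 50 kb from the lower-coordinate end, the loss of H3K27me3 calls was uneven. The first segment had 100% H3K27me3 in DMSO and 34.4% in CPI-0209, and the second 84.4% and 20.3%. The third had 97.2% in DMSO and 0% in CPI-0209, and the fifth 35.3% and 0%. The last segment, of 44.0 kb, had 90.9% and 57.7%, the highest CPI-0209 value of the 6. The EZH2 difference was widest in the second segment, with 0% in DMSO and 85.2% in CPI-0209, and was lower in CPI-0209 in the fourth, with 29.1% and 18.8%. The third segment, where no H3K27me3 was called in CPI-0209, had 23.7% EZH2 in DMSO and 29.9% in CPI-0209. Both ends of the record thus held most of what remained of the mark.

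Among the 998 protein-coding records of 250 kb or longer, 71 (7.11%) were covered by H3K27me3 over at least 50% in DMSO, and 33, EYA2 included, at least as much as EYA2. A difference in H3K27me3 coverage as large as at EYA2 (CPI-0209 minus DMSO, −58.3 percentage points) was found at 13 of them, EYA2 included. A difference in EZH2 as large as at EYA2, 29.4 points higher in CPI-0209, was found at 5, EYA2 included. Of the 705 such records with EZH2 in DMSO, 8.37% had at least 2 times the coverage in CPI-0209. SLC2A10, a glucose transporter gene 158.5 kb below EYA2, had 83.8% and 15.6% H3K27me3 and 37.1% and 63.2% EZH2, whereas ZMYND8, 20.4 kb above it, had no H3K27me3 and 19.9% and 10.9% EZH2. The pattern over EYA2 was therefore also present at its lower neighbour and not called at its upper one.

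EYA4, a coactivator whose mutation causes hearing loss (chromosome 6, 133240593 to 133532128), was called only next to its start. H3K27me3 covered 1.22% of its window in DMSO (3.6 kb) and 0.947% in CPI-0209 (2.8 kb), and EZH2 1.35% (4.0 kb) and 1.29% (3.8 kb). Under 2% coverage is common in long records with any H3K27me3 call, at 40.5% in DMSO and 64.0% in CPI-0209. The tabled start lies 764 bp inside the record. The DMSO H3K27me3 interval ran from 0.044 kb to 3.64 kb after this start, and the CPI-0209 interval from 0.556 kb before it to 2.24 kb after it. The 250 bases printed above for EYA4 were therefore outside H3K27me3 in DMSO and inside it in CPI-0209, a shift of 3 grid steps, while EZH2 covered them in both. Of the DMSO length 61.1% was called again.

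EYA1, a coactivator required for ear and kidney formation (chromosome 8, 71197433 to 71548094), had no H3K27me3 in either condition and no EZH2 in DMSO. Neither mark in DMSO was the state of 33.2% of all genes. In CPI-0209 an EZH2 interval of 3.2 kb, from 71545601 to 71548800, reached over the upper-coordinate end of the record. Outside the window, an H3K27me3 stretch of 3.8 kb began 7.11 kb above the record in DMSO and one of 1.8 kb began 8.11 kb above it in CPI-0209. A DMSO EZH2 stretch of 6.6 kb began 3.91 kb above it. The absence of calls at EYA1 therefore holds for the window of 2 kb: with 10 kb on either side, both marks were called in both conditions.

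DACH1, a cofactor related to the SKI family (chromosome 13, 71437966 to 71867204), also carried its calls only around the start. H3K27me3 covered 1.62% of the window in DMSO and 0.785% in CPI-0209, and EZH2 1.43% and 1.20%. The H3K27me3 domain extended from 3.6 kb before the start to 5.0 kb inside the gene in DMSO (8.6 kb) and from 0.396 kb before it to 3.0 kb inside in CPI-0209 (3.4 kb). The EZH2 domain was 9.0 kb long in DMSO against 5.2 kb in CPI-0209. Both were narrower on both sides of the start in CPI-0209. The H3K27me3 coverage in CPI-0209 was 0.485 times that in DMSO, just under the limit of 0.5. Without the 2 kb added to the record it was above that limit, and EYA2 alone was left below it. No stretch of the DACH1 window lay under 2 overlapping H3K27me3 intervals in CPI-0209.

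**Figure D4:**
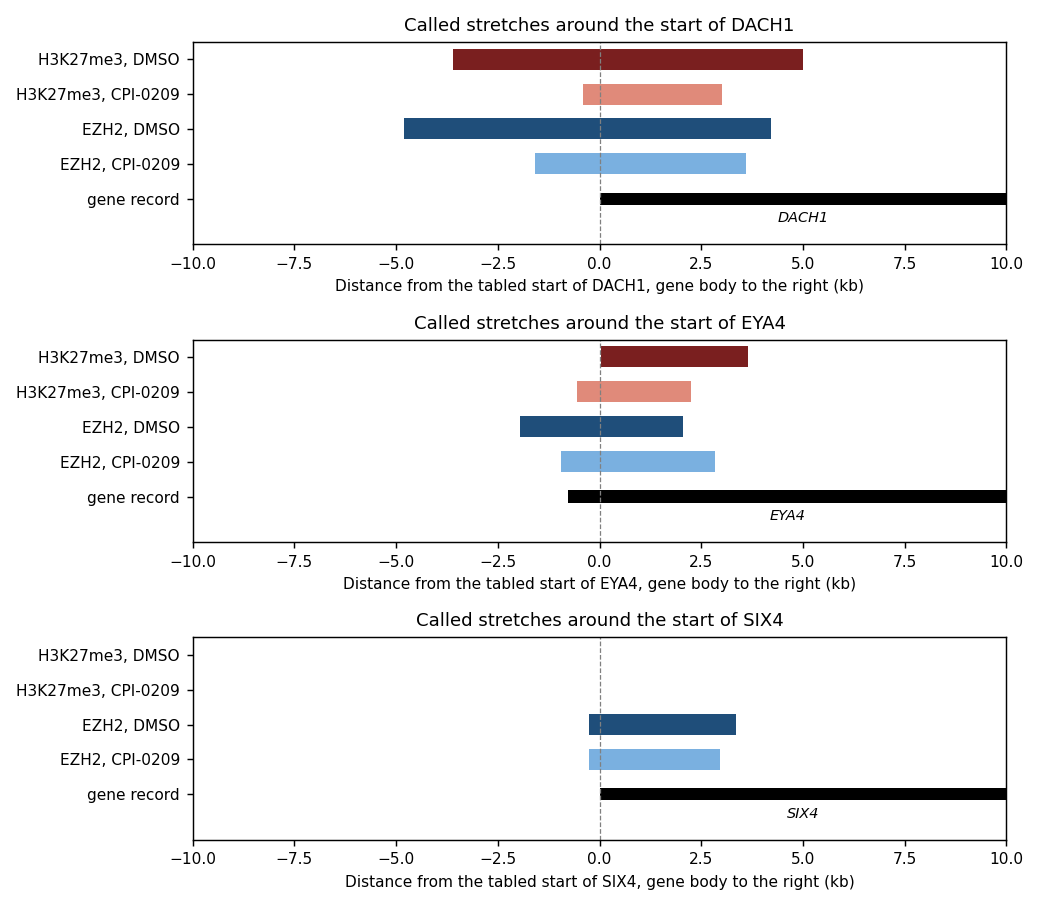
Called stretches (coloured bars) of the 4 libraries around the tabled starts of DACH1, EYA4 and SIX4, by distance in kb with the gene body to the right and the record in black. The DACH1 H3K27me3 stretch is 8.6 kb long in DMSO against 3.4 kb in CPI-0209, the EYA4 stretch 3.6 kb against 2.8 kb, and SIX4 has EZH2 stretches only.

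Domain width was compared over the genes called in both lists of an antibody. The widest H3K27me3 domain was narrower in CPI-0209 at 6 of 6 genes, which is near the background of 97.9% of all genes and says nothing particular to them. The widest EZH2 domain was wider in CPI-0209 at 2 of 7 genes, SIX3 and EYA2, against 37.2% of all genes. Counted only where 2 intervals of a list overlap, these directions turned at several genes: the widest EZH2 stretch was 5.8 kb long in DMSO against 17 kb in CPI-0209 at SIX2, 9.2 kb against 11.2 kb at SIX6 and 3.4 kb against 4.2 kb at DACH1, whereas at EYA2 it was shorter with the inhibitor, at 12.6 kb against 10.8 kb. SIX3 was wider in CPI-0209 under both countings (24.6 kb against 31.4 kb). EZH2 coverage was higher in CPI-0209 at 2 of the 8, EYA1 and EYA2, against 41.6%. It was equal at SIX2, SIX3 and SIX6, where no more could be covered, and slightly lower at SIX4, EYA4 and DACH1. Under 2 overlapping intervals it was higher at SIX2, EYA2, EYA4 and DACH1. With 10 kb on either side it was lower at SIX2 (−9.89 points) and SIX6 (−15.2 points) and equal at SIX3.

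At the marked genes H3K27me3 and EZH2 overlapped to different degrees. All of the DMSO H3K27me3 in the SIX2, SIX3 and SIX6 windows lay under DMSO EZH2, 88.6% at DACH1, 55.6% at EYA4 and 29.6% at EYA2. In CPI-0209 the share of H3K27me3 under EZH2 was 100% at SIX2, SIX3, SIX6, EYA4 and DACH1, and 92.9% at EYA2. The share of DMSO H3K27me3 length called again in CPI-0209 was 100% at SIX2 and SIX3, 76.6% at SIX6, 61.1% at EYA4, 48.5% at DACH1 and 26.2% at EYA2. EYA2 had the lowest DMSO overlap and the lowest retained length of the 6 in these values. Among the others the orders differed: EYA4 had less overlap than DACH1 but a larger retained length. The order by retained length did not hold in every setting, and the overlap was not computed in other settings. Under 2 overlapping intervals the retained length was 2.33% at EYA2 and 0% at SIX6 and DACH1. With intervals of at least 5 kb it was 21.0% at EYA2 and 0% at DACH1. The 100% at SIX2 and SIX3 belongs to short windows inside wider domains. With 10 kb on either side the retained length was 75.3% at SIX2, 100% at SIX3 and 61.6% at SIX6. It was again lowest of the 6 at EYA2 (25.2%). Under 2 overlapping intervals it was 82.2% at SIX2 and 40.6% at SIX3. At DACH1 the 0.80 kb of H3K27me3 outside DMSO EZH2 was not called again, and at EYA4 12.5% of 1.6 kb was.

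Other genes of the network were counted from a list of 25: SIX5, EYA3 and DACH2 of the 3 families, PAX factors upstream of them, cofactors, and targets or partners. H3K27me3 was called at 17 of the 25 in each condition, beside 34.2% of all genes in DMSO and 24.5% in CPI-0209. EZH2 was called at 23 in DMSO and 25 in CPI-0209, beside 58.8% and 75.1% of all genes. The first 4 with H3K27me3 in list order were PAX2, PAX3, PAX6 and PAX7, and the first 4 without it were SIX5, EYA3, DACH2 and PAX8. The median coverage of the list by H3K27me3 was 53.2% in DMSO and 22.1% in CPI-0209, beside medians of 0% over all genes, and by EZH2 44.8% and 51.1%, beside 3.70% and 6.96%. Coverage by H3K27me3 in CPI-0209 was at most 0.5 times that in DMSO at 5 of the 17, against 62.1% of all genes with H3K27me3 in DMSO. The first 4 of these were PAX2 (98.2% and 43.4%), a kidney regulator, PAX3 (29.9% and 11.4%), a neural crest and muscle regulator, SOBP (54.4% and 9.13%), a cofactor of the homeodomain proteins, and TLE1 (6.32% and 2.37%), a corepressor. EZH2 coverage was higher in CPI-0209 at 12 of the 25 and lower at 8, near the background of 41.6% of all genes with higher coverage. The 4 first named with higher EZH2 were SIX5, EYA3, DACH2 and PAX7, and at EYA3 and DACH2 EZH2 was called in CPI-0209 alone (1.47% and 0.320%).

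By group, H3K27me3 was called in DMSO at 0 of the 3 other family genes counted, 4 of 5 PAX factors, 2 of 5 cofactors and 11 of 12 targets and partners, and each of these counts was the same in CPI-0209. Over all genes the shares with H3K27me3 were 34.2% in DMSO and 24.5% in CPI-0209. The median H3K27me3 coverage of the targets and partners was 98.4% in DMSO and 60.2% in CPI-0209. MYOD1, the muscle determination factor, and RAX, an eye field factor, had 100% in all 4 lists, as SIX2 and SIX3 had.

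The median profile of the 8 genes over the 4 libraries was 40.3% and 10.8% H3K27me3 and 21.2% and 34.9% EZH2. The 2 genes over 1 Mb from any member with the smallest Euclidean distance to it were LOC124903248 (3.46 percentage points) and PIK3CD (5.42). The 3 nearest to EYA2 alone, a comparison added after its values were seen, were SMYD1 (7.92), AMBP (7.95) and CD83 (8.51), with records of 45.6 kb, 18.2 kb and 19.7 kb. The median profile is not that of any single member. SIX2, SIX3 and SIX6 were wholly or largely covered, EYA1, EYA4 and DACH1 had under 2%, and SIX4 had EZH2 alone. The values under 2% at EYA1, EYA4 and DACH1 belong to long records. Over records of 250 kb or longer the median was 0.760% for H3K27me3 and 1.01% for EZH2 in DMSO. In CPI-0209 these medians were 0% and 0.866%.

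The whole DMSO list of H3K27me3 covered 315.1 Mb against 113.8 Mb for CPI-0209, and that of EZH2 193.4 Mb against 226.3 Mb, so the difference at EYA2 had the same direction as the totals for both antibodies. The share of covered length under 2 overlapping intervals was 62.7% and 12.9% for H3K27me3 and 17.8% and 50.8% for EZH2; the part of such list-wide differences in the values at single genes was not tested. Of 7 epithelial and urothelial markers, 6 had no H3K27me3 in either condition (CDH1, KRT7, KRT8, KRT18, KRT19 and GRHL2) and EPCAM had 25.3% and 10.1%. H3K27me3 was called at 3 of 4 mesenchymal markers in both conditions, at 3 of 4 blood markers in DMSO and 1 in CPI-0209, and at 2 of 4 neuronal markers in DMSO and 1 in CPI-0209, beside 34.2% and 24.5% of all genes. EZH2 was called at all 7 epithelial and urothelial markers in both conditions, with median coverage of 60.5% in DMSO and 46.7% in CPI-0209. Of 4 markers each, it was called at 3 and 4 mesenchymal, 3 and 3 blood, and 2 and 3 neuronal markers. Over all genes EZH2 was called at 58.8% in DMSO and 75.1% in CPI-0209. Expression was not measured in these libraries.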

How the data were processed

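Chromatin from HT1376 cells was analysed in 4 ChIP libraries, 1 per group, and the input library was left out. Per the submitters' processing notes the tools were BWA and SICER and the build hg38, with no version or setting. The deposited lists give interval positions only, per the file headers; starts count from 0 and are printed counting from 1. The control of the calls is not stated.

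The 8 genes and the gene lists were chosen with earlier results of these data known. Named genes were the 8 members, their nearest protein-coding neighbours, the first 4 of a list per outcome, and the 3 nearest profiles; others were chosen after their values were seen. A gene of the network list and a near profile named by this rule are not reported here. Records came from a RefSeq table of GRCh38.p14 (1 record per gene, chromosomes 1 to 22 and X), and starts from its promoter table, which holds no entry for SIX3, EYA1 and EYA2. Coverage and merging used numpy 2.4.6 and pandas 2.3.3, binomial limits scipy 1.17.1. The functions for coverage, overlap and difference of intervals were tested on simulated data. Those for domain width, list shortening and counts were not. With 1 library per group no test between conditions was run. Limits cover counting error only. Alternatives changed the flank, the intervals used, the call and the joining of gaps.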

Additional observations from a re-analysis of the deposited data

Results flagged for a closer look

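At EYA2 the 2 antibodies went in opposite directions between the conditions: H3K27me3 coverage differed by −58.3 percentage points (CPI-0209 minus DMSO) and EZH2 coverage by 29.4 points, which sets them 87.7 points apart. The difference was not tested, since each group is 1 library.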

How the results depend on the processing

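Of the 72 recounts over the 8 genes under other settings, 51 stayed within 1.5 times the count reported, and 21 did not. The cause was not tested beyond what each setting does by construction. The settings were applied to the 8 genes only, so these recounts have no share over all genes beside them. Over stretches under 2 intervals, H3K27me3 in CPI-0209 was at 3 genes (3 at the start), coverage was lower by the limit of 0.5 at 4 of 5, EZH2 was higher at 4, the widest H3K27me3 domain narrower at 3 of 3 and the widest EZH2 domain wider at 4 of 5. With intervals of at least 5 kb, EZH2 in CPI-0209 was at 5 genes (5 at the start) and higher at 1. With the longer list of each antibody shortened by its widest intervals, H3K27me3 in DMSO was at 2 genes (2 at the start), lower by the limit of 0.5 at 1 of 2 and narrower at 2 of 2, and EZH2 in CPI-0209 was at 5 (5 at the start) and higher at 1. That cut kept 2694 of 41342 H3K27me3 DMSO intervals, none under 33.2 kb, and reversed the difference at SIX6 (76.6 points), EYA4 (0.947) and DACH1 (0.785), as it removes their DMSO calls, and those of SIX2, where the difference went from 0 to 100 points. With at least 50% of the window required, H3K27me3 in CPI-0209 was at 3 genes, EZH2 in DMSO at 3 and in CPI-0209 at 4. The H3K27me3 difference met the limit at 1 gene with no flank and at 0 of 6 with a limit of 0.25. The EZH2 difference reversed at EYA4 with no flank (0.27 points) and, over stretches under 2 intervals, at EYA4 (1.08) and DACH1 (0.18). The EYA2 differences kept their directions for both antibodies under every setting that recomputed them, at −23.6 to −62.2 points for H3K27me3 and 16.2 to 30.4 for EZH2, and the retained length at EYA2 was 2.33% to 37.1%. Depth is unknown, so an absent call does not show that a mark was absent. No paired analysis was possible because each group has 1 library.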
